A study of Homo sapiens with 6 samples.

Results

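ARHGAP36 and 8 genes of Hedgehog signalling were followed through 6 RNA-seq libraries of the SH-SY5Y line, which was derived from a human neuroblastoma and resembles immature sympathetic neurons. The genes were ARHGAP36, PRKACA, GLI1, GLI2, GLI3, PTCH1, SMO, SUFU and HHIP. They were picked by symbol around ARHGAP36, which had been seen to be among the most raised genes of these libraries, so differences between genotypes in these 9 genes are given as a description. Whether a gene passed the threshold used for all genes is stated, and nothing is read from it. Of the 9 genes, 7 had a row among the 20668 genes of the gene table, and all 7 were among the 16403 genes that passed the filter on low counts. There were 3 libraries from wild-type cells (WT) and 3 from cells of the same line whose DNAJC12 gene, for a co-chaperone, was disrupted by CRISPR/Cas9 (KO), and no group was treated with an agent. No label says whether the knockout cells were 1 clone or a pool, or whether replicates came from separate cultures. The p-values therefore measure only how these libraries vary, and that variation may be technical.

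In the Hedgehog pathway a secreted ligand binds the receptor PTCH1 and so releases SMO, a membrane protein that PTCH1 otherwise holds inactive. Active SMO frees the GLI transcription factors from SUFU and from phosphorylation by protein kinase A (PKA), whose catalytic subunit alpha is encoded by PRKACA. ARHGAP36 encodes a GTPase-activating family protein that binds and inhibits PKA catalytic subunits and can activate GLI factors without ligand. GLI1, PTCH1 and HHIP are themselves classical targets of GLI factors, which is why their RNA is often used as a readout of the pathway.

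The 6 libraries held 19321842 to 21869659 counts each. A floor of 3 counts was 0.137 to 0.155 CPM (counts scaled to a common library total). DNAJC12 had 476, 421 and 392 counts in WT and 116, 122 and 104 in the knockout, lower in each knockout library (log2 difference -1.95 ± 0.13, edgeR adjusted p = 1.25e-06). Of 16403 genes tested with edgeR's quasi-likelihood test, 26.0% passed an adjusted p of 0.05, 14.5% higher and 11.5% lower in the knockout. When only library size was used instead of TMM scaling (edgeR's trimmed mean of M-values), the split was 2055 higher and 2438 lower, against 2383 and 1887. All 8 sympathetic neuroblast markers were present, with a summed level of 4129 to 4267 CPM in WT and 3694 to 3781 CPM in the knockout. Of these, 6 passed the test, 1 of them higher. Fibroblast markers summed to 298 to 320 and 344 to 367 CPM, with 2 of 5 higher and 1 lower. Schwann cell, endothelial and epithelial markers summed to at most 6.47 CPM in any library, with SOX10, FOXD3, PECAM1, CDH5, KRT5 and KRT14 without a row in the gene table. The 4 immune markers summed to 10.3 to 15.2 CPM in WT and 18.6 to 26.7 CPM in the knockout, most of it CD68, and CD3E had no row. The part of these shifts in the results below was not tested.

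ARHGAP36 RNA went from one of the lowest levels among these genes to one of the highest. ARHGAP36 (ENSG00000147256) lies on chromosome X from 131058346 to 131089885 on the plus strand of GRCh38.p14. The gene table held 107, 112 and 85 counts in WT replicates 1, 2 and 3 and 2958, 2751 and 3022 counts in knockout replicates 1, 2 and 3. As CPM after TMM scaling these were 5.18, 5.68 and 4.35 in WT and 151, 132 and 141 in the knockout. The lowest knockout library was thus far above the highest WT library, and the libraries of a genotype lay close together. The means were 5.07 ± 0.676 and 141 ± 9.08 CPM (SD, n = 3 each). The difference in log2 CPM between knockout and WT, in the edgeR fit, was 4.80 ± 0.11 (SE, n = 3 per group), a fold of 27.8, with a 95% interval of the log2 difference of 4.55 to 5.04. From the summed counts, 304 and 8731, the ratio was 26.8 per library total, with an exact 95% interval of 23.9 to 30.1 for counting error only. Of 16403 tested genes, 97 had a larger positive log2 difference. Across the 13 other settings and left-out libraries the log2 difference stayed between 4.70 and 4.88. In bulk RNA a higher level in each cell and a larger number of cells that hold the RNA cannot be told apart.

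The region before the annotated start of ARHGAP36 is shown because this gene carries the largest difference of the 9, and that of PTCH1 because PTCH1 was higher in the same libraries and is the classical GLI target. Both are RefSeq sequence of GRCh38.p14, 250 bases before to 50 bases after a start site, 5′ to 3′ on the gene's strand. The RefSeq table gives 1 or more start sites per gene, with 2 windows for ARHGAP36 and 5 for PTCH1, and the first listed is shown. The windows are chrX:131058096-131058395 on the plus strand and chr9:95509217-95509516 on the minus strand. Capitals mark a match to the GLI consensus GACCACCCA, read on the opposite strand as TGGGTGGTC.
ARHGAP36: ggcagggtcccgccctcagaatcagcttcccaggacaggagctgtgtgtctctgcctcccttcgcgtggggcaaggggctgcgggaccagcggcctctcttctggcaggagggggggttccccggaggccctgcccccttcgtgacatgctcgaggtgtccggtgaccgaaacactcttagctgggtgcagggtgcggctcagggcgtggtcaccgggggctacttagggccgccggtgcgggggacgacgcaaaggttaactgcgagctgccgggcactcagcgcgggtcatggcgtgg
PTCH1: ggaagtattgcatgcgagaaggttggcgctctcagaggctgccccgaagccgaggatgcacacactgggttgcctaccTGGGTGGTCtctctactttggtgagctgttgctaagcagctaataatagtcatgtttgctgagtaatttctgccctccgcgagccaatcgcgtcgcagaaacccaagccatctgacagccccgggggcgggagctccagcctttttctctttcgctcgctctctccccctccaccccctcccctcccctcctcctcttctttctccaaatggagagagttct
The ARHGAP36 window lies at the outer end of the gene. The PTCH1 window belongs to a start site at 95509266, which is 7.71 kb inside the outer end of the gene and 605 bases upstream of the nearest GENCODE release 29 start, that of ENST00000331920. PTCH1 held the consensus 172 to 164 bases before the start site at 95509266, and the other 4 PTCH1 windows and both ARHGAP36 windows did not hold these letters. The second ARHGAP36 window belongs to a start site 24.1 kb inside the gene. Neither ARHGAP36 window covers the transcript start 20.4 kb downstream of the annotated start that is described below, so the region before it was not searched. On either strand the 9 letters were in 1 of the 14 windows found for 7 of these genes, and in 83 of 35116 windows of the same length over all genes (0.236%). Among first listed windows they were in 0 of the 16 found for the GLI target list described below. No other list described below had them either, and the share over all 27305 genes was 0.249%. The full cAMP response element TGACGTCA, which is bound by the PKA substrate CREB, was in 1 of the 14 windows, that of HHIP, and in 1.85% of all windows. GLI1 and GLI3 were not among the windows. The ARHGAP36 window had 23 CpG dinucleotides and the PTCH1 window 13, where the median over the first listed windows of all genes was 14.

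The transcript files divide the reads of ARHGAP36 among transcripts with different first exons. ENST00000276211, with a coding length of 547 codons, starts 104 bases before the annotated start, within the window shown. It was given 5.39, 55.4 and 5.45 estimated reads in WT and 1537, 1321 and 1683 in the knockout. A pair of transcripts, ENST00000639280 (411 codons) and ENST00000412432 (516 codons), starts 20.4 kb downstream of the annotated start. Together they got 102, 0 and 79.6 reads in WT and 1421, 1431 and 1339 in the knockout. The long form therefore took 5.04%, 49.5% and 6.41% of the reads in WT and 52.0%, 48.0% and 55.7% in the knockout. WT replicate 2 stood apart from the other WT libraries and lay inside the knockout range. In that library the other 50.5% went to ENST00000370921, which starts 25.4 kb downstream of the annotated start and got 0 reads in the other libraries. These are Salmon's estimates from about 100 reads per WT library, and their own error is not in the files. In the knockout the estimates divided the reads about equally between both of the main starts in each library. Within the downstream pair the division was less stable. ENST00000639280 got 41.9%, 40.3% and 19.6% of the reads in knockout replicates 1, 2 and 3, and ENST00000412432 got 6.15%, 11.7% and 24.7%.

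**Figure D1:**
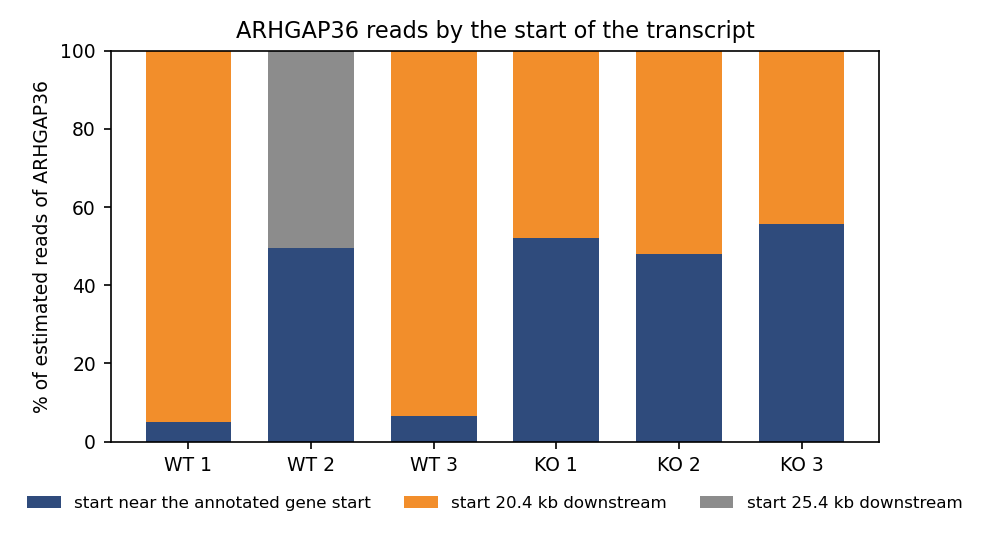
Share of the estimated reads of ARHGAP36 (percent, y axis) by the start position of the transcript, in each of the 6 libraries (x axis). The start near the annotated gene start took 48.0% to 55.7% in the knockout libraries, and 5.04%, 49.5% and 6.41% in WT replicates 1, 2 and 3.

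The neighbours of ARHGAP36 on chromosome X did not share its difference in size. Distances were taken between gene starts, meaning the lowest coordinate of a gene on either strand. Of 40 annotated genes whose start lies within 1 Mb, 11 were protein-coding and 9 were tested, of which 4 passed the threshold (44.4% beside 26.0% of all genes). IGSF1, a gene of a pituitary membrane glycoprotein 215 kb downstream, rose by 0.67 ± 0.11 on the log2 scale (edgeR adjusted p = 0.00138), and by 1.02 ± 0.26 on counts summed from transcripts. STK26, a kinase gene 965 kb downstream, rose by 0.94 ± 0.09 (edgeR adjusted p = 2.74e-05). On the other side RAB33A (-0.56 ± 0.17, edgeR adjusted p = 0.0338) and AIFM1, a mitochondrial flavoprotein gene (-0.29 ± 0.08, edgeR adjusted p = 0.0229), fell. These genes overlap, so their reads may be shared. RAB33A did not pass without WT replicate 2 or 3 or knockout replicate 2 or 3 (adjusted p from 0.0576 to 0.135), nor on counts summed from the transcript files (0.0576). AIFM1 did not pass without WT replicate 1, 2 or 3 or knockout replicate 3 (0.0555 to 0.140), nor on the summed counts (0.627). Among the 20 tested genes on each side with a mean of at least 4 CPM, the median log2 difference was 0.05 around ARHGAP36. Around the other 6 genes this median lay between -0.08 and 0.07.

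**Figure D2:**
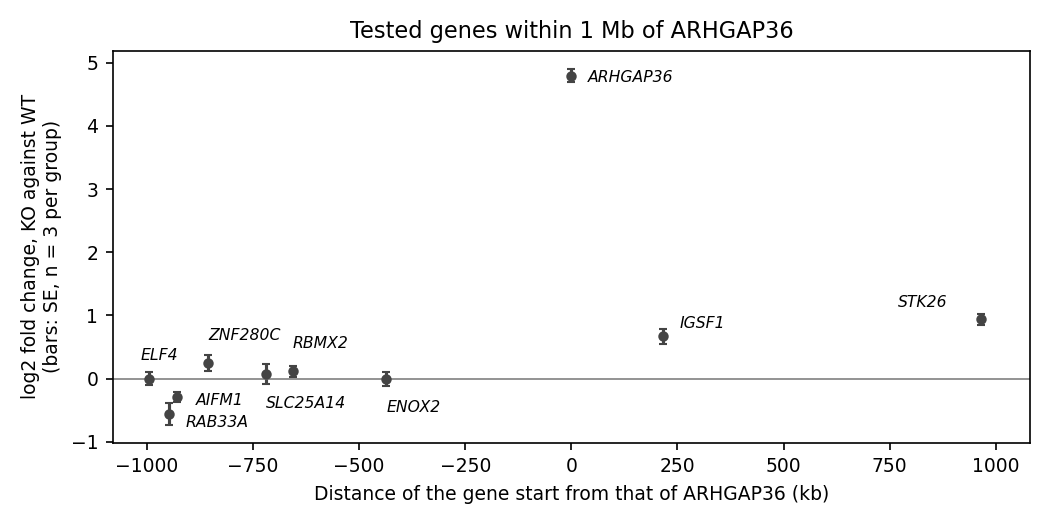
Log2 fold change of knockout against WT (y axis, bars are SE, n = 3 per group) of ARHGAP36 and the 9 tested genes within 1 Mb, by distance of the gene start in kb (x axis). ARHGAP36 is at 4.80. The nearest tested gene on each side is at -0.00241 (ENOX2, start 436 kb upstream) and 0.67 (IGSF1, start 215 kb downstream). A start here is the lowest coordinate of a gene on either strand. ENOX2 extends to 130903209, closer to ARHGAP36 than its start.

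The genes whose profile over the 6 libraries was nearest to that of ARHGAP36 were KIT, LRRC17, SLC5A7, LBH and TAGLN. The measure was the Euclidean distance of log2 CPM centred on the WT mean, which was 0.418, 0.431, 0.464, 0.490 and 0.556 in this order. KIT, a receptor tyrosine kinase gene, went from 0.950 ± 0.114 to 25.4 ± 1.73 CPM (SD, n = 3 each), and LBH, a transcriptional cofactor gene, from 7.62 ± 0.583 to 181 ± 28.5 CPM. Counts summed from the transcript files gave KIT 0 in all 3 WT libraries and 364, 201 and 134 in the knockout, against 21, 20 and 16 and 462, 560 and 549 in the gene table. With libraries of only 2 genotypes the distance mostly ranks genes by the size of their difference.

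PRKACA, the kinase subunit that ARHGAP36 protein binds, had nearly the same RNA level in both genotypes. It is on chromosome 19 from 14091688 to 14117762. Its level was 82.3, 84.9 and 88.2 CPM in WT and 86.7, 90.8 and 84.1 CPM in the knockout, so the groups overlapped. The log2 difference was 0.03 ± 0.07 (SE), with a 95% interval of -0.12 to 0.19, and -0.02 when scaled by library size only. A single transcript, ENST00000308677 (351 codons), held 97.2% to 99.2% of its reads in every library.

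Of the membrane receptors, PTCH1 was higher in the knockout and SMO was not. PTCH1, on chromosome 9 from 95442980 to 95516971, stood at 27.9, 27.9 and 23.7 CPM in WT and 45.3, 39.9 and 43.8 CPM in the knockout. Each knockout library was above each WT library. The log2 difference of PTCH1 was 0.70 ± 0.10 (SE), a fold of 1.62 with a 95% interval of 1.39 to 1.89. On counts summed from the transcript files it was 0.52 ± 0.17, and there PTCH1 lay outside the threshold it passed in the other settings. The GENCODE release 29 transcripts used for that sum held 47.9% to 66.4% of the gene table's PTCH1 counts, and at least 98.8% for the other 6 genes. SMO, on chromosome 7 from 129188633 to 129213545, was the most abundant of the 7 genes in WT by CPM. It stood at 152, 141 and 149 CPM in WT and 163, 133 and 147 CPM in the knockout. The knockout values of SMO spanned the WT values, and the log2 difference was 0.01 ± 0.08 (SE), with a 95% interval of -0.17 to 0.18.

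SUFU, the cytoplasmic inhibitor of GLI factors, overlapped between genotypes as well. SUFU lies on chromosome 10 from 102502819 to 102633535. It stood at 31.5, 27.8 and 26.9 CPM in WT and 32.8, 27.4 and 30.8 CPM in the knockout. Its log2 difference was 0.08 ± 0.10 (SE), with a 95% interval of -0.16 to 0.31.

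The 3 GLI genes differed from each other in level and in direction. GLI2, the main transcriptional activator of the pathway, is on chromosome 2 from 120735868 to 120992653. Its counts were 353, 267 and 278 in WT and 503, 472 and 515 in the knockout, or 17.1, 13.6 and 14.2 CPM against 25.6, 22.7 and 24.0 CPM. All knockout libraries were above all WT libraries. The log2 difference of GLI2 was 0.69 ± 0.12 (SE), a fold of 1.61 with a 95% interval of 1.35 to 1.93. ENST00000361492 (1586 codons), which starts inside the annotated gene, held 78.3% to 96.1% of its reads.

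GLI1, the amplifying factor whose RNA is induced by the other GLI factors, was lower on average in the knockout. It is on chromosome 12 from 57459785 to 57472268. There were 126, 96 and 130 counts in WT and 97, 83 and 83 in the knockout, or 6.10, 4.87 and 6.65 CPM against 4.94, 4.00 and 3.87 CPM. Knockout replicate 1 was just above WT replicate 2, so the groups overlapped. The log2 difference of GLI1 was -0.46 ± 0.19 (SE), with a 95% interval of -0.89 to -0.03, and between -0.58 and -0.37 in the 13 other settings. GLI1 passed the threshold over all genes in none of the 14 settings, the main one included. In the same libraries PTCH1, also a GLI target, was thus higher and GLI1 was lower on average.

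GLI3 and HHIP were at or near 0. GLI3, the main repressor form of the family, lies on chromosome 7 from 41960949 to 42264268, and HHIP, a decoy that binds Hedgehog ligands, on chromosome 4 from 144646156 to 144745271. Neither has a row in the gene table, in which the lowest total over the 6 libraries was 10 counts. Over its 8 transcripts in GENCODE release 29, GLI3 had 1 estimated read in knockout replicate 2 and 0 in the other libraries. HHIP had 0 reads over 8 transcripts in all 6 libraries, which allows up to 3 counts, or 0.137 to 0.155 CPM, in a library.

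**Figure D3:**
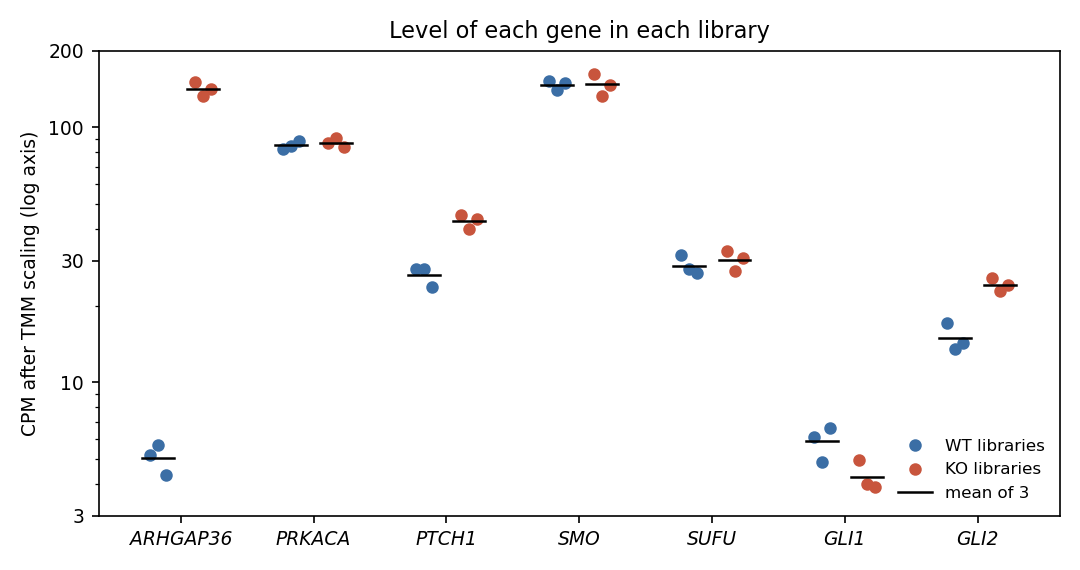
CPM after TMM scaling (log axis) of the 7 genes in the gene table, with 1 point per library (WT and KO, 3 each) and lines at the means. ARHGAP36, PTCH1 and GLI2 have all knockout points above all WT points, and the points of PRKACA, SMO, SUFU and GLI1 overlap.

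Levels of different genes were compared as TPM, a share of all transcripts that is corrected for length. In WT the order was SMO (54.2 ± 2.47 TPM; SD, n = 3 for each gene), PRKACA (46.5 ± 0.679 TPM), SUFU (7.62 ± 0.741 TPM), PTCH1 (4.21 ± 0.127 TPM), GLI1 (3.27 ± 0.929 TPM), GLI2 (3.25 ± 0.473 TPM) and ARHGAP36 (2.60 ± 0.397 TPM). The WT libraries of GLI1 and GLI2 overlapped, as did those of PTCH1 and GLI1 and those of GLI2 and ARHGAP36. The GLI1 sum includes short transcripts. In WT replicate 1, 2.0 reads on ENST00000530789 (314 bases) gave 1.05 of its 4.28 TPM. Its main transcript, ENST00000228682, was at 1.88, 1.58 and 1.90 TPM in WT. That of GLI2, ENST00000361492, was at 2.81, 2.13 and 2.65 TPM. The order of GLI1 and GLI2 in WT thus depends on the transcripts that are summed. In the knockout ARHGAP36 headed the order at 65.3 ± 3.53 TPM, with 69.1, 62.1 and 64.7 TPM. Each of these was above each SMO value, at 58.3, 48.1 and 50.8 TPM. PRKACA followed at 44.8 ± 2.99 TPM and overlapped with SMO. PTCH1 (9.57 ± 3.41 TPM), SUFU (7.78 ± 0.662 TPM), GLI2 (5.43 ± 0.425 TPM) and GLI1 (1.74 ± 0.412 TPM) were lower, and PTCH1 overlapped with SUFU. The PTCH1 values are lowered by the transcripts that could not be assigned, but their sum includes short transcripts. In knockout replicate 3, ENST00000551630 (539 bases), ENST00000549678 (578 bases) and ENST00000547615 (525 bases) gave 4.02, 2.85 and 1.89 of PTCH1's 12.99 TPM. The main PTCH1 transcript, ENST00000331920, was at 1.36, 2.16 and 1.57 TPM in the knockout. That of SUFU, ENST00000369902, was at 7.91, 6.79 and 7.69 TPM. The order of PTCH1 and SUFU in the knockout thus depends on the transcripts that are summed.

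Of the 7 genes, 3 were higher past the threshold, 0 were lower and 4 did not pass, beside 26.0% of all genes past it (14.5% higher and 11.5% lower). For the same 3 genes the groups did not overlap, with the knockout above WT, beside 41.7% of all genes (21.7% with the knockout above and 20.1% with it below). The genes were chosen with this contrast in view, so nothing is read from these counts.

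**Figure D4:**
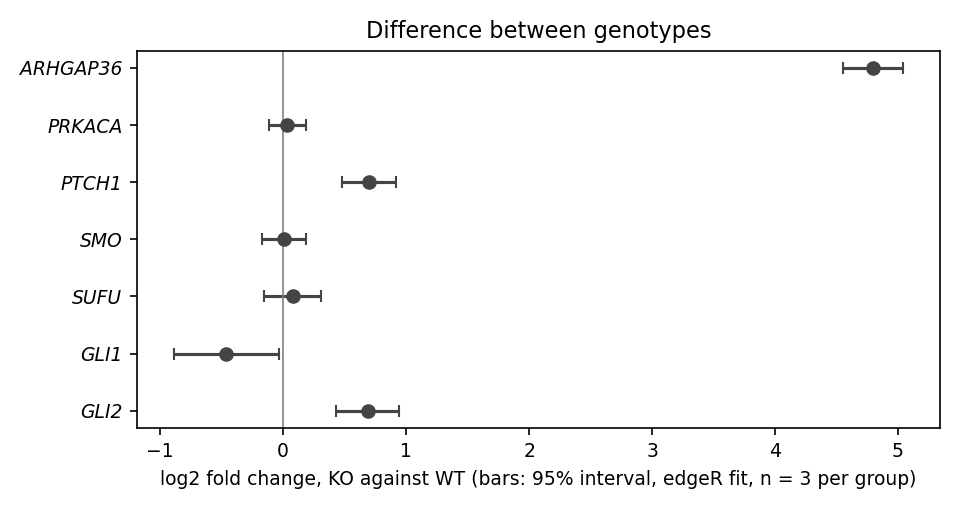
Log2 fold change of knockout against WT (x axis) with its 95% interval from the edgeR fit (n = 3 per group) for the 7 genes. ARHGAP36 is at 4.80, PTCH1 and GLI2 are at 0.70 and 0.69, GLI1 is at -0.46, and the intervals of PRKACA, SMO and SUFU include 0.

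Other genes of Hedgehog signalling were tested in the same fit. This list and those in the paragraphs below, 6 in all, were chosen with earlier results of these data known. Their shares past the threshold are therefore given as a description, and no enrichment is read from them. Among 18 genes of ligands, ligand release, receptors and co-receptors, 15 were tested, of which 5 rose, 3 fell and 7 did not pass. That is 53.3% past the threshold beside 26.0% of all genes, with a median log2 difference of 0.10 beside 9.19e-06. Of the ligand genes, SHH had no row in the gene table, IHH had at most 3 counts in a library, and DHH, named after its values were seen, fell from 1.40 ± 0.351 to 0.537 ± 0.268 CPM (SD, n = 3; edgeR adjusted p = 0.0469). DHH did not pass in 8 of 13 alternatives (adjusted p from 0.0600 to 0.169): with DESeq2, without a filter, on summed transcript counts, and without WT replicate 1, 2 or 3 or knockout replicate 2 or 3. The co-receptor genes moved in both directions. GAS1, which helps PTCH1 bind ligand, was at 5.33, 5.23 and 5.11 CPM in WT and 24.1, 19.6 and 22.2 CPM in the knockout, and rose by 2.07 ± 0.12 on the log2 scale (edgeR adjusted p = 7.46e-07). CDON, another co-receptor gene, fell by 0.63 on the log2 scale (SE 0.112, edgeR adjusted p = 0.00190), and by 1.14 on counts summed from transcripts. Its relative BOC, named after its values were seen, rose by 0.72 ± 0.14 (edgeR adjusted p = 0.00296), but did not pass on the summed counts (0.42 ± 0.19, adjusted p = 0.154). GPC3, a glypican that competes with PTCH1 for ligand, fell from 213 ± 14.9 to 96.9 ± 7.10 CPM (SD, n = 3; edgeR adjusted p = 2.16e-06). SCUBE3, of a family that helps release the ligand, rose from 0.547 ± 0.184 to 2.65 ± 0.260 CPM (edgeR adjusted p = 0.000742).

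Of 47 tested genes of ciliary transport and GLI processing, 7 rose, 2 fell and 38 did not pass. The share past the threshold, 19.1%, was below the 26.0% of all genes, and the median log2 difference was 0.03. The count depended on single libraries: it was 3 without WT replicate 1, 4 without WT replicate 2 and 2 without knockout replicate 3. Summing the transcript files gave 5. ARRB1, an arrestin that takes part in SMO transport, rose by 0.71 ± 0.08 (edgeR adjusted p = 0.000110). FBXW11, a substrate receptor of the ubiquitin ligase that processes GLI proteins, rose by 0.77 ± 0.09 (edgeR adjusted p = 0.000138), and the median of its chromosome 5 surroundings was 0.65. The kinase gene GSK3B (0.35 ± 0.09) and the ligase scaffold gene CUL1 (0.39 ± 0.10) rose with edgeR adjusted p of 0.0122 and 0.0169. GSK3B did not pass without WT replicate 3 or knockout replicate 3 (0.0610 and 0.0579), nor on the summed counts (0.161). CUL1 did not pass without WT replicate 1 or 2 or knockout replicate 3 (0.0698 to 0.0754), and its log2 difference was 0.73 on the summed counts. GPR161, a ciliary receptor that raises cAMP and restrains the pathway, was at 160 ± 6.98 and 153 ± 3.16 CPM (SD, n = 3 each; difference -0.06 ± 0.06, edgeR adjusted p = 0.532). KIF7, the ciliary motor gene that positions SUFU and GLI proteins, was at 19.7 ± 1.94 and 20.6 ± 0.560 CPM (edgeR adjusted p = 0.701). GPR161 and KIF7 were named for their role after their values were seen.

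Genes known as GLI targets in one tissue or another were split. Of 30 such genes 17 were tested, of which 5 rose, 5 fell and 7 did not pass (58.8% past the threshold beside 26.0%), with a median log2 difference of -0.10. GREM1, a secreted BMP antagonist gene, was at 34.9, 54.9 and 70.1 CPM in WT and 145, 183 and 162 CPM in the knockout (edgeR adjusted p = 0.000148). The cell cycle kinase gene CDK6 rose from 223 ± 30.7 to 434 ± 78.4 CPM (SD, n = 3; edgeR adjusted p = 0.000336). Its partner cyclin gene CCND1 fell from 798 ± 174 to 435 ± 12.1 CPM (edgeR adjusted p = 0.000488). The growth factor gene IGF2 was at 110, 97.9 and 83.3 CPM in WT and 23.6, 37.9 and 29.9 CPM in the knockout, and fell by 1.67 on the log2 scale (edgeR adjusted p = 2.14e-05). CCND2, FOXF1, FOXL1, NKX2-2, NKX6-1 and OLIG2, classical targets in mesenchyme or neural tube, had no row in the gene table.

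Genes of PKA and cAMP turnover also moved in both directions. Of 41 tested, 8 rose, 10 fell and 23 did not pass (43.9% beside 26.0%), and the median log2 difference was 0.04. None of the other catalytic subunit genes tested passed, with PRKACB at 75.9 ± 2.40 and 65.0 ± 13.3 CPM (SD, n = 3 each; edgeR adjusted p = 0.226) and PRKX at 40.2 ± 3.61 and 35.6 ± 2.92 CPM (edgeR adjusted p = 0.237). These were named for their role, and PRKACB passed without knockout replicate 2 (-0.40, adjusted p = 0.00373). Among the regulatory subunits PRKAR1A, which holds the catalytic subunits inactive, rose from 259 ± 12.5 to 344 ± 26.0 CPM (SD, n = 3; edgeR adjusted p = 0.00168). It was the only one of the 4 tested to pass and was named after its values were seen. The inhibitor peptide gene PKIA, named in the same way, fell from 59.7 ± 1.86 to 48.9 ± 4.97 CPM (edgeR adjusted p = 0.0362), and did not pass without WT replicate 1, 2 or 3 or knockout replicate 1 or 3 (0.0685 to 0.119).

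The 4 genes of this list with the smallest adjusted p encode a G protein subunit, a cyclase, an anchor and a phosphodiesterase. GNAI1, an inhibitory G alpha subunit gene, was at 38.1, 38.5 and 39.4 CPM in WT and 122, 168 and 142 CPM in the knockout, a rise of 1.90 ± 0.11 on the log2 scale (edgeR adjusted p = 5.66e-07). The adenylyl cyclase gene ADCY5 rose from 0.584 ± 0.0278 to 5.05 ± 1.68 CPM (SD, n = 3; edgeR adjusted p = 6.31e-05). AKAP12, which anchors PKA at the membrane, rose from 116 ± 6.51 to 256 ± 35.0 CPM (edgeR adjusted p = 9.29e-06). PDE4B, a cAMP phosphodiesterase gene, fell from 67.5 ± 1.35 to 41.2 ± 1.51 CPM (edgeR adjusted p = 3.93e-05). Of the 11 phosphodiesterase genes of the list that were tested, 7 fell (PDE3A, PDE3B, PDE4B, PDE4D, PDE7B, PDE8A and PDE10A), 0 rose and 4 did not pass, a share of 63.6% that fell beside 11.5% of all genes. This grouping was chosen after the values were seen, and PDE10A did not pass without WT replicate 3 (adjusted p = 0.0509).

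Among CREB-family genes and genes known to be induced by cAMP, 23 were tested, of which 6 rose, 7 fell and 10 did not pass (56.5% beside 26.0%; median -0.17). CREB1 (0.18 ± 0.11, edgeR adjusted p = 0.256) and CREM (-0.18 ± 0.14, edgeR adjusted p = 0.412) did not pass and were named for their role, but CREB1 passed without knockout replicate 1 (0.28, adjusted p = 0.0418). The granule protein gene CHGA (1.71 ± 0.08, edgeR adjusted p = 1.51e-07) and the neuropeptide gene VIP rose. VIP was at 3.87, 5.18 and 5.98 CPM in WT and 26.3, 48.1 and 36.3 CPM in the knockout (edgeR adjusted p = 6.28e-06). SCG2, another granule protein gene, fell from 726 ± 108 to 85.8 ± 18.2 CPM (SD, n = 3; edgeR adjusted p = 2.24e-07). The coactivator gene PPARGC1A fell from 4.54 ± 1.28 to 0.279 ± 0.155 CPM (edgeR adjusted p = 4.25e-05). NR4A1, an orphan nuclear receptor gene induced by cAMP and named after its values were seen, fell from 31.7 ± 10.7 to 17.6 ± 0.515 CPM (edgeR adjusted p = 0.0105). Its relative NR4A2 also fell (-3.02 ± 0.70, edgeR adjusted p = 0.00912), but at low counts. It had 11, 11 and 12 counts in WT and 1, 0 and 3 in the knockout, at or under the floor of 3 counts. NR4A3 did not pass (1.19 ± 0.40, edgeR adjusted p = 0.0540). FOS (1.16 ± 0.33) and FOSB (1.93 ± 0.57) rose with edgeR adjusted p of 0.0252 and 0.0304, but their groups overlapped. FOSB was at 9.78, 90.7 and 43.7 CPM in the knockout. These genes were also named after their values were seen.

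**Figure D5:**
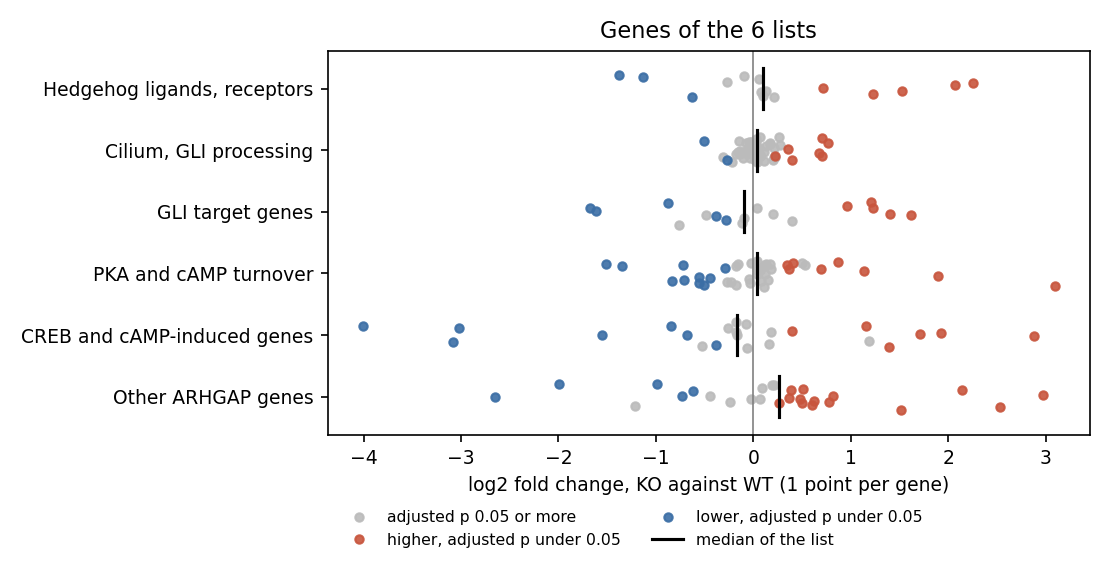
Log2 fold change of knockout against WT (x axis) of each tested gene in the 6 lists (y axis), coloured by whether it passed an edgeR adjusted p of 0.05, with a line at each list's median. The medians lie between -0.17 and 0.27, and genes past the threshold stand on both sides of 0 in every list.

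ARHGAP36 was set beside the other genes of its family. Of 27 tested genes of the ARHGAP series, 14 rose, 5 fell and 8 did not pass (70.4% beside 26.0%), with a median log2 difference of 0.27. None of these 27 had a log2 difference as large as that of ARHGAP36. ARHGAP28 rose from 5.88 ± 1.04 to 46.1 ± 8.02 CPM (SD, n = 3; edgeR adjusted p = 4.21e-07). ARHGAP6, which is close in sequence to ARHGAP36, was at 8.28, 9.44 and 10.7 CPM in WT and 29.6, 24.5 and 27.4 CPM in the knockout (edgeR adjusted p = 8.32e-06). ARHGAP29 rose by 2.14 ± 0.19 on the log2 scale (edgeR adjusted p = 1.61e-05). ARHGAP24, a filamin-binding member, fell from 8.64 ± 0.990 to 1.37 ± 0.508 CPM (edgeR adjusted p = 2.97e-05).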

How the data were processed

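RNA was depleted of ribosomal RNA and made into stranded, randomly primed libraries, per the labels' protocols. Salmon 1.10.0, cutadapt 3.5, DESeq2 1.42.1 and GRCh38.p14 are named in the submitters' processing notes, without roles; the annotation release and strand setting are not given in the sources used here. The deposited gene table holds estimated counts rounded to whole numbers, not normalized. The deposited transcript files hold estimated counts and TPM of 251955 transcripts, per the file headers. Removing 403 repeated rows left 20668 genes.

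The fit used edgeR 4.0.16 in R 4.3.3, with filterByExpr, TMM and the quasi-likelihood F-test, two-sided, with Benjamini-Hochberg adjustment over all 16403 genes. SE was obtained by dividing the size of the log2 fold change by the root of F. Fold changes are knockout against WT. GENCODE release 29 linked transcripts to genes (94.2% to 94.6% of reads). Intervals and floors from counts cover counting error only. No pair of replicates agreed within sampling noise (chi-square per gene of 4.37 to 22.7), so each library counts once. The 9 genes and the 6 lists (204 genes, 169 tested) were chosen with earlier results of these data known. Named in each list are the 4 genes with the smallest adjusted p, besides the 9 genes, DNAJC12, the 5 nearest profiles and tested genes within 1 Mb of ARHGAP36; others are marked. The alternatives were DESeq2 1.42.0, other scalings and filters, a replicate block, each library left out and summed transcript counts.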

Additional observations from a re-analysis of the deposited data

How the results depend on the processing

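Over the 13 alternatives the log2 difference was 0.62 to 0.79 for GLI2, 0.52 to 0.75 for PTCH1, -0.02 to 0.06 for PRKACA, -0.07 to 0.07 for SMO and 0.02 to 0.15 for SUFU. The count of all genes past the threshold was 4270, and 2966 to 4772 with 1 library left out. For ciliary transport and GLI processing the count of 9 became 5 on counts summed from the transcript files and 2 to 10 with 1 library left out, and the counts of the other 5 lists stayed within 1.5 times under every alternative run. Replicate numbers of the labels were not said to mark a shared culture. Same-numbered libraries deviated from their group means with correlations of 0.07, -0.05 and -0.09, and not every library correlated best with its own number, so they were taken to share a number only. With the replicate block 4565 genes passed, against 4270 without it.

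Among tested neighbours of ARHGAP36 that did not pass, the sign turned for 3 whose log2 difference was near 0. ELF4 (5.16e-04) was at -0.00481 with DESeq2, -0.00169 with DESeq2 size factors, -0.0546 with library sizes, -0.00700 without a filter and -0.00548 with the replicate block, and ran from -0.0713 to 0.0973 with 1 library left out. ENOX2 (-0.00241) was at 0.00161 with a minimum of 1 CPM and 0.0811 on summed transcript counts, and ran from -0.0623 to 0.0550 with 1 library left out. SLC25A14 (0.0696) ran from -0.0337 to 0.216 with 1 library left out. The cause was not tested. Depth limits GLI1 and WT ARHGAP36, with about 100 counts per library, and leaves GLI3 and HHIP at or under the floor of 3 counts.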

Other observations

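The cAMP response element TGACGTCA was in the first listed promoter window of 5 of the 23 CREB-family and cAMP-induced genes found there (21.7%): DUSP1, SST, VGF, CHGA and AREG. It was in 1.98% of the first listed windows of 27305 genes. The list was made up of CREB-family genes and genes already known to be induced by cAMP, so the larger share is no test. CHGA and VGF, both granule protein genes, moved in opposite directions: CHGA rose from 105 ± 10.8 to 344 ± 13.6 CPM and VGF fell from 963 ± 300.3 to 329 ± 52.5 CPM (SD, n = 3 each; edgeR adjusted p = 1.51e-07 and 0.000171). DUSP1, a phosphatase gene, rose from 14.2 ± 1.86 to 37.1 ± 13.2 CPM (edgeR adjusted p = 0.00105), and the median log2 difference of its chromosome 5 surroundings was 0.68. SST and AREG had no row in the gene table. These genes were named after their values were seen.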
